A study of Mus musculus with 12 samples.

Results

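The transcripts described here are 9 inducible transcription factor genes of 2 families, the Nr4a receptors (Nr4a1, Nr4a2 and Nr4a3) and the Krüppel-like factors Klf2, Klf4, Klf5, Klf6, Klf9 and Klf10. They were chosen by name from the 55833 gene features counted in mouse RNA-seq libraries, and all 9 were listed in every library. The study, whose title concerns the kinase CK1α, autoimmunity and cGAS-STING signalling, has 12 libraries in 6 groups of 2. The first set was treated with SSTC3, a small molecule known as an activator of CK1α, or with DMSO, the vehicle. The other sets compare CK1a overexpression (CK1a_OE) with its control (OE_control), and CK1a knockdown by siRNA (CK1a_KD) with its control (KD_control).

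The SSTC3 libraries are labelled TREX1-KO and TREX2-KO BMDM (bone marrow-derived macrophages), and the DMSO libraries TREX3-KO and TREX4-KO BMDM, so every library of that set carries a knockout label of its own. The labels do not say whether these numbers name different knockouts, and taken as written the knockout and the treatment cannot be told apart in this set. The 8 remaining libraries are MEF (mouse embryonic fibroblasts) by label, and the genotype of all 12 is given as C57BL/6J. The labels give no dose, time, age, construct, siRNA sequence or number of clones, and they do not say whether replicates are separate cultures. The p-values below therefore measure the spread between libraries, which may be technical and in these fits was largely pooled over all genes.

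Nr4a receptors are orphan nuclear receptors of the immediate-early class: they bind DNA without a known physiological ligand, and their transcripts rise and decay quickly after growth factors, cAMP, calcium or inflammatory signals. Klf factors are zinc-finger proteins that bind GC-rich and CACCC sequences, and the 6 described here respond to serum, flow, glucocorticoids or TGF-beta in many cell types. In fibroblasts and macrophages members of both families are known as regulators of inflammation, proliferation and differentiation.

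The 3 Nr4a promoters are shown because each has several copies of the CRE half-site, the core of the element bound by CREB. Klf2 is shown beside them because its promoter has a single copy and because its reads were missing from a whole cell set. The windows are from RefSeq on GRCm38.p6 (mm10), run 5′ to 3′ on the gene's strand from 250 bases before to 50 bases after the RefSeq start, and have every TGACG or CGTCA in capitals. They lie at chr15:101266596-101266895 (plus strand) for Nr4a1, chr2:57123954-57124253 (minus strand) for Nr4a2, chr4:48045055-48045354 (plus strand) for Nr4a3 and chr8:72318812-72319111 (plus strand) for Klf2. GENCODE M21 places the start of Nr4a1, Nr4a3 and Klf2 upstream of the RefSeq start used here.
Nr4a1: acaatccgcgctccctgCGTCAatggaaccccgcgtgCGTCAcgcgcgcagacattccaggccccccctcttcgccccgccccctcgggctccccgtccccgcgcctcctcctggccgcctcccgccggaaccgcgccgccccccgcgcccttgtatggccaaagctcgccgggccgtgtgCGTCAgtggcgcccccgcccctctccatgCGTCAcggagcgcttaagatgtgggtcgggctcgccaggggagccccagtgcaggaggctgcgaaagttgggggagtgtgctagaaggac
Nr4a2: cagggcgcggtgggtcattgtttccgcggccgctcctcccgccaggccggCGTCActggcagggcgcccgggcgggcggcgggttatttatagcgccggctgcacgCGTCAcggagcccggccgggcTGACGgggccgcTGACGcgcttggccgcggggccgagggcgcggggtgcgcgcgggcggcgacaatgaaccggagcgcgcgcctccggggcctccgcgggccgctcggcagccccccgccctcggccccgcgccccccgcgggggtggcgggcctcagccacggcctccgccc
Nr4a3: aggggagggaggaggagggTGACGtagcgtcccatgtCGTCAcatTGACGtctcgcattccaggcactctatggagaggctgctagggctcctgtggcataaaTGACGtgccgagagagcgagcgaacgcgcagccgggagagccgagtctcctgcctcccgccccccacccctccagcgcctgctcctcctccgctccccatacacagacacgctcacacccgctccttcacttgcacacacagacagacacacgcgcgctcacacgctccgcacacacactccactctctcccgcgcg
Klf2: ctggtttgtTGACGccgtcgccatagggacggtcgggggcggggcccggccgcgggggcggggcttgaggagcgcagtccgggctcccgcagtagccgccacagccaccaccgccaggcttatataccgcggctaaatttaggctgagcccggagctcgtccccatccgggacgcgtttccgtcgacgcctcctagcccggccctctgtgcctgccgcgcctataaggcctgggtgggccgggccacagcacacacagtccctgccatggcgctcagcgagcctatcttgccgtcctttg

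Windows were matched for 7 of the 9 genes, all but Klf5 and Klf10. The half-site TGACG, read on both strands, stood in 6 of the 7 windows, against 20.8% of all 32851 promoter windows of the same length. Nr4a1, Nr4a2 and Nr4a3 had 4 copies each, and 4 or more copies were found in 0.231% of all windows. Klf2, Klf4 and Klf9 had 1 copy each, and no copy was found in the Klf6 window. The whole palindrome TGACGTCA, which contains 2 overlapping half-sites, was found in 0 of 7 windows, against 1.79% of all. The CArG box bound by serum response factor, searched as CCWWWWWWGG (W for A or T), stood in 0 of 7, against 1.63% of all. The Nr4a element AAAGGTCA was likewise found in 0 of 7, against 1.51%. Near matches to these elements were not searched for. The GC box GGGCGG stood in 6 of 7 windows against 35.7% of all, and CACCC in 4 of 7 against 57.5%. The letters TATAAA, on either strand, stood in the Nr4a2 window alone, against 13.6% of all windows. GC content was 72.3%, 81.7% and 64.7% in the Nr4a1, Nr4a2 and Nr4a3 windows and 69.3% in the Klf2 window, against a median of 52.7% over all windows. These matches describe letters in a window and are not evidence of binding.

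Library totals ran from 16063627 to 19427506 counts, with 20266 to 22950 genes detected. Levels are given as CPM, counts scaled to a common library total. The kinase transcript Csnk1a1 stood at 426 and 424 CPM in SSTC3 libraries, against 413 and 430 CPM in DMSO libraries. It stood at 229 and 244 CPM in libraries labelled CK1a_OE, against 238 and 235 CPM in OE_control libraries, so the labelled overexpression did not appear as a higher transcript count. In CK1a_KD libraries it stood at 172 and 169 CPM, against 325 and 354 CPM in KD_control libraries. The BMDM label went against the markers. The macrophage list (21 genes) summed to 12.7 to 13.4 CPM in SSTC3 and 10.3 to 10.5 CPM in DMSO libraries, with 11 to 15 of its genes at 0 and Adgre1, the gene of the macrophage antigen F4/80, at 0 in all 4. The fibroblast list (14 genes) summed to 8307 to 8385 CPM in SSTC3 and 9134 to 9416 CPM in DMSO libraries. The set is called by its treatment below. In the sets labelled MEF the fibroblast list summed to less, 4044 to 4660 CPM (overexpression) and 3655 to 4363 CPM (knockdown). Col1a1 of that list stood at 38.8 to 65.3 CPM and 188 to 211 CPM there, against 2242 to 2864 CPM in SSTC3 and DMSO libraries. Trex1 had 0 counts in all 12 libraries, so it checks no label.

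With SSTC3, all 9 genes rose and were called higher at an adjusted p under 0.05, against 27.1% of all 14151 genes tested. In either direction 53.6% of all genes were called. Each of the 9 had a higher level in both treated libraries than in either DMSO library, a separation that was not counted over all genes. The median log2 fold change was 2.285 over the 9 genes and 0.011 over all genes. Changes ran over a wide range, from 1.72-fold for Klf9 to 31.9-fold for Nr4a3, and 7 of the 9 passed a test for a change of more than 2-fold, against 4.03% of all genes called higher by that test. In bulk RNA a change in the share of cells with a transcript and a change in its amount per cell cannot be told apart.

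Nr4a1 (Nur77), the receptor best known from T-cell activation and macrophage responses, became the most abundant of the 9 per kilobase. It was counted at 276 and 275 CPM in SSTC3 libraries, against 19.8 and 18.5 CPM in DMSO libraries, a log2 fold change of 3.90 ± 0.06 (SE, n = 2 libraries per group, edgeR adjusted p 2.86e-157). Nr4a2 (Nurr1), known for the development of dopamine neurons, was counted at 29.1 and 31.0 CPM with SSTC3, against 9.85 and 8.25 CPM with DMSO. Its log2 fold change of 1.78 ± 0.12 (edgeR adjusted p 1.75e-36) was the smallest of the 3 receptors.

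Nr4a3 (NOR1) had almost no reads in the DMSO libraries. It was counted at 12.7 and 13.2 CPM in SSTC3 libraries, from 215 and 223 reads, against 0.176 and 0.653 CPM in DMSO libraries, from 3 and 11 reads. The log2 fold change was 4.996 ± 0.28 (edgeR adjusted p 2.76e-46), the largest of the 9, but its size rests on 14 reads. The ratio of summed counts, scaled by library totals, was 31.2 with a 95% interval of 18.4 to 57.6, which covers counting error only. Without DMSO replicate 1 the log2 fold change was 4.34, and without DMSO replicate 2 it was 6.19.

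Klf2, a flow-responsive and anti-inflammatory factor of endothelium and a quiescence factor of T cells, was counted at 61.4 and 59.8 CPM with SSTC3, against 11.1 and 10.4 CPM with DMSO (log2 fold change 2.55 ± 0.09, edgeR adjusted p 7.59e-76). Klf4, a reprogramming and differentiation factor, was counted at 30.5 and 31.8 CPM with SSTC3, against 7.92 and 8.25 CPM with DMSO (log2 fold change 2.00 ± 0.12, adjusted p 2.88e-42). Klf5, a growth-associated factor of epithelium and smooth muscle, was counted at 52.3 and 54.7 CPM with SSTC3, against 8.33 and 8.07 CPM with DMSO (log2 fold change 2.76 ± 0.10, adjusted p 3.01e-75). These 3 genes, which are related by sequence and can act on shared targets, were all at 12 CPM or less with DMSO, and Klf5 had the largest change of the 6 Klf genes. Endothelial markers, which Klf2 can accompany, summed to 53.0 to 58.3 CPM in SSTC3 and 47.1 to 47.7 CPM in DMSO libraries, and their part in the Klf2 value was not tested. The epithelial list (8 genes) summed to 2.59 to 3.18 CPM in SSTC3 libraries, with 1 to 2 genes at 0, and to 0.762 to 1.01 CPM in DMSO libraries, with 5 genes at 0. Its part in the Klf4 and Klf5 values was not tested.

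Klf10 (TIEG1), a repressor induced early by TGF-beta, was counted at 139 and 136 CPM with SSTC3, against 29.1 and 29.5 CPM with DMSO (log2 fold change 2.29 ± 0.06, edgeR adjusted p 1.49e-98). Klf6, a broadly expressed factor of injury responses, was counted at 183 and 181 CPM with SSTC3, against 92.8 and 94.5 CPM with DMSO (log2 fold change 1.01 ± 0.05, adjusted p 9.68e-54). Klf9, a target of glucocorticoid and thyroid hormone receptors, was counted at 57.2 and 56.9 CPM with SSTC3, against 33.8 and 35.1 CPM with DMSO (log2 fold change 0.78 ± 0.08, adjusted p 2.45e-20). Klf6 and Klf9 had the highest DMSO levels of the 6 Klf genes in CPM and the smallest changes, and they were the 2 genes that did not pass the test for more than 2-fold.

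**Figure D1:**
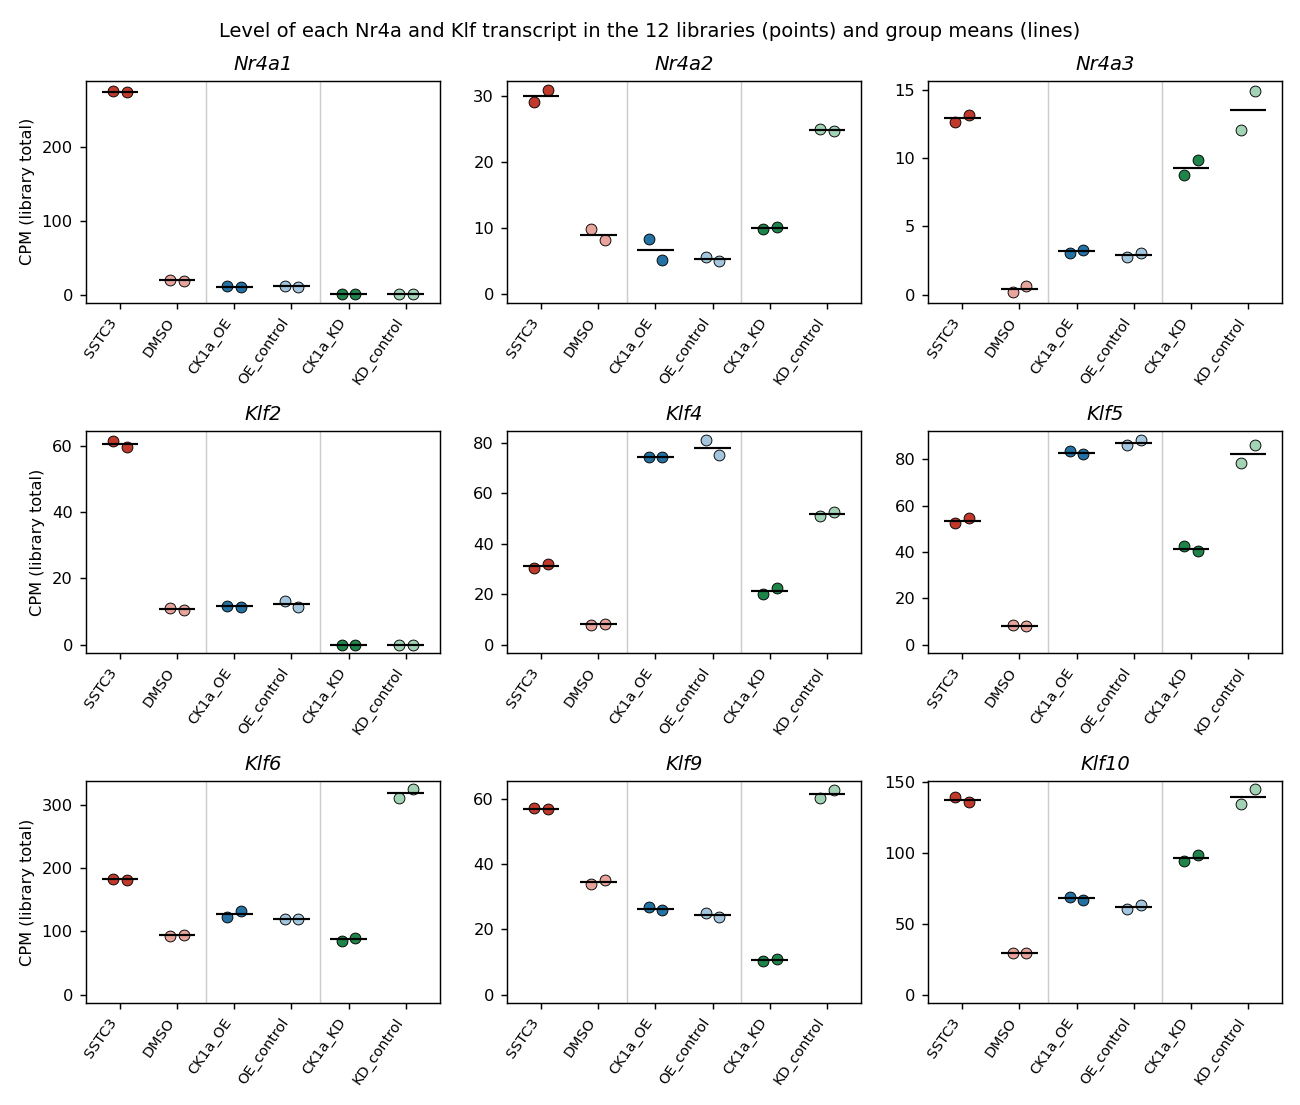
Level of each of the 9 genes in CPM of the library total (vertical axis, linear and scaled per panel) in the 12 libraries (points) of the 6 groups, with lines for group means. Both SSTC3 points lie above both DMSO points in all 9 panels, and Klf2 lies at 0 in the 4 libraries of the knockdown set.

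In the libraries labelled CK1a_OE, where Csnk1a1 itself was not higher, no change was detected in the 9 genes. At an adjusted p under 0.05 edgeR called 0 of the 9, against 13.3% of the 13958 genes tested, and DESeq2 called 0 of the 5 to which it gave an adjusted p. Log2 fold changes ran from -0.09 (Klf5) to 0.31 (Nr4a2), with 5 above 0 and 4 below, and at an unadjusted p under 0.05 there was 1 gene, Klf10. Klf10 was counted at 68.9 and 67.0 CPM in libraries labelled CK1a_OE, against 60.3 and 63.1 CPM in OE_control libraries (log2 fold change 0.13 ± 0.06, edgeR p 0.0375, adjusted p 0.161).

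Levels of the receptors were close between the groups. Nr4a1 was counted at 11.4 and 10.2 CPM in libraries labelled CK1a_OE, against 11.4 and 10.8 CPM in OE_control libraries, with a log2 fold change of -0.05 ± 0.14. Nr4a3 was counted at 3.03 and 3.28 CPM in libraries labelled CK1a_OE, against 2.77 and 3.02 CPM in OE_control libraries, with a log2 fold change of 0.11 ± 0.28.

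The direction of Nr4a2 rested on a single library. It was counted at 8.33 and 5.24 CPM in libraries labelled CK1a_OE, against 5.71 and 5.12 CPM in OE_control libraries, a log2 fold change of 0.31 ± 0.20 (edgeR adjusted p 0.349). Without CK1a_OE replicate 1 the log2 fold change was -0.06.

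Klf4 was counted at 74.4 and 74.4 CPM in libraries labelled CK1a_OE, against 80.9 and 74.9 CPM in OE_control libraries. Klf5 was counted at 83.5 and 82.3 CPM in libraries labelled CK1a_OE, against 86.3 and 88.1 CPM in OE_control libraries. Both had lower values in both libraries labelled CK1a_OE than in either control, with adjusted p of 0.39 and 0.299 in edgeR. Klf6 was counted at 123 and 131 CPM in libraries labelled CK1a_OE, against 119 and 119 CPM in OE_control libraries (adjusted p 0.232). Klf9 was counted at 26.8 and 25.9 CPM in libraries labelled CK1a_OE, against 24.9 and 23.9 CPM in OE_control libraries (adjusted p 0.588). Klf6, Klf9, Klf10 and Nr4a3 had higher values in both libraries labelled CK1a_OE than in either control, by margins that did not pass the test. These separations, like those of Klf4 and Klf5, were not counted over all genes. Klf2 overlapped, with 11.7 and 11.4 CPM in libraries labelled CK1a_OE, against 13.0 and 11.3 CPM in OE_control libraries (adjusted p 0.76).

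With CK1a knockdown, 7 of the 8 genes that could be tested fell, and the remaining one, Nr4a1, did not pass the test. Among all 14832 genes tested, 26.4% were called lower and 54.7% in either direction. The median log2 fold change was -1.162 over the 8 genes and -0.008 over all genes. Both CK1a_KD libraries were below both KD_control libraries for all 8, a separation that was not counted over all genes. Klf4, Klf6 and Klf9 passed the test for a change of more than 2-fold, against 2.12% of all genes called lower by that test.

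Klf9 and Klf6 had the largest falls. Klf9 was counted at 10.3 and 10.9 CPM in CK1a_KD libraries, against 60.4 and 62.8 CPM in KD_control libraries, a log2 fold change of -2.50 ± 0.10 (edgeR adjusted p 1.21e-32). Klf6 was counted at 85.5 and 89.4 CPM in CK1a_KD libraries, against 311 and 325 CPM in KD_control libraries (log2 fold change -1.83 ± 0.05, adjusted p 6.05e-41). The KD_control level of Klf6 was the highest of any group. Klf4 was counted at 20.1 and 22.2 CPM in CK1a_KD libraries, against 50.8 and 52.5 CPM in KD_control libraries (log2 fold change -1.25 ± 0.09, adjusted p 1.87e-19). Klf5 was counted at 42.5 and 40.2 CPM in CK1a_KD libraries, against 78.2 and 86.0 CPM in KD_control libraries (log2 fold change -0.95 ± 0.07, adjusted p 1.92e-18). Klf10 changed least of the Klf genes, at 94.6 and 98.9 CPM in CK1a_KD libraries, against 135 and 145 CPM in KD_control libraries (log2 fold change -0.50 ± 0.06, adjusted p 1.05e-11).

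Among the receptors, Nr4a2 was counted at 9.83 and 10.3 CPM in CK1a_KD libraries, against 24.96 and 24.7 CPM in KD_control libraries (log2 fold change -1.27 ± 0.12, edgeR adjusted p 4.16e-14). Nr4a3 was counted at 8.75 and 9.83 CPM in CK1a_KD libraries, against 12.1 and 14.9 CPM in KD_control libraries (log2 fold change -0.51 ± 0.15, adjusted p 0.00248). That call was lost without KD_control replicate 2, where the log2 fold change was -0.34 and the adjusted p 0.0863. Nr4a1, the most induced receptor by level in the SSTC3 set, was near the limit of detection here, at 0.515 and 0.684 CPM in CK1a_KD libraries (10 and 13 reads), against 1.31 and 1.29 CPM in KD_control libraries (21 and 23 reads). Its log2 fold change was -1.07 ± 0.50 (adjusted p 0.0625). The ratio of its summed counts was 0.461, with a 95% interval of 0.266 to 0.780, which covers counting error only. A single edgeR fit of all 12 libraries called Nr4a1 lower (adjusted p 0.00518), but other settings did not. The edgeR adjusted p was 0.12 without the filter, 0.0614 with RLE factors, 0.054 with library totals and 0.0688 with a replicate block. In DESeq2 it was 0.202.

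Klf2 had 0 counts in both CK1a_KD and both KD_control libraries and was not tested there. The gene is listed in these 4 files. They list as many features (54532) as the files of the SSTC3 set, where Klf2 had 175 to 1043 reads. Whether Klf2 reads could be counted in the knockdown set was not tested. If they could, a count of 0 allows levels up to 0.154 and 0.158 CPM in CK1a_KD libraries and 0.187 and 0.168 CPM in KD_control libraries, taking 3 counts as the limit, while Klf2 stood at 10.4 CPM or more in the other 8 libraries. Neighbouring genes had reads in the knockdown set, at levels that differed from the other sets by gene. The directly flanking genes were lower than elsewhere, Eps15l1 at 15.8 to 22.1 CPM in the knockdown set and 79.7 to 104 CPM in the other 8 libraries, and Gm10282 at 15.0 to 17.6 CPM and 22.2 to 101.6 CPM. Ap1m1, the next gene out, stood at 93.0 to 107 CPM in the knockdown set and 52.7 to 117 CPM in the other libraries. Of the 8188 genes at 10 CPM or more in each of the other 8 libraries, 56 (0.684%) were at 0 in all 4 libraries of the knockdown set, among them Klf2, its relative Klf13 and the TGF-beta target Pmepa1. The matching shares were 0.026% for the SSTC3 set and 0.228% for the overexpression set. The cause was not tested.

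Marker sums moved within the knockdown set as well. The macrophage list summed to 325 to 327 CPM in CK1a_KD and 272 to 279 CPM in KD_control libraries, most of it from the lysosomal gene Cd68. The fibroblast list summed to 4273 to 4363 CPM and 3655 to 3706 CPM, but its genes did not all follow the sum. Pdgfrb of that list stood at 98.9 and 96.6 CPM in CK1a_KD, against 230 and 236 CPM in KD_control libraries. The part of these markers in the falls was not tested.

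**Figure D2:**
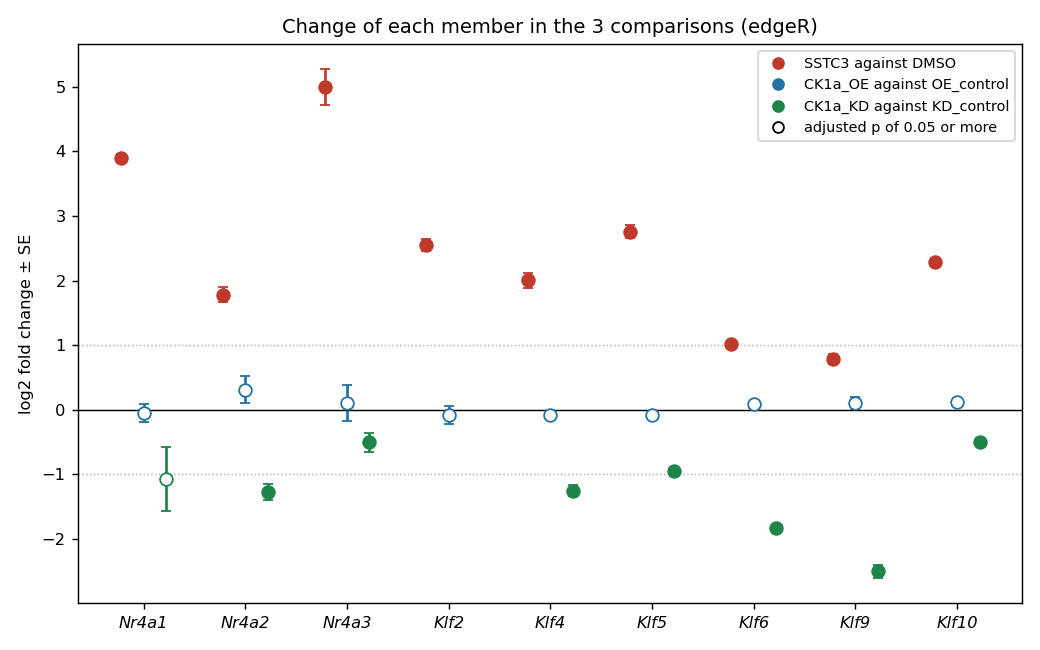
Log2 fold change ± SE (vertical axis) of each gene in the 3 comparisons (edgeR, 2 libraries per group), with open circles for an adjusted p of 0.05 or more and dotted lines at 2-fold. The SSTC3 values lie above 0 for all 9 genes, the overexpression values lie between -0.09 and 0.31, and the knockdown values lie below 0 for the 8 tested genes.

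The effects of SSTC3 and knockdown pointed in opposite directions, and of the 8 genes tested in both, 7 rose with SSTC3 and fell with knockdown, against 9.81% of the 12431 genes tested in both. The difference between the effects, tested in a single fit of all 12 libraries, was called above 0 at an adjusted p under 0.05 for 8 of 8 genes, as it was for 23.5% of the 17105 genes tested. It ran from 2.81 ± 0.08 (Klf10, edgeR adjusted p 8.25e-49) to 5.53 ± 0.34 (Nr4a3, adjusted p 5.25e-26) on the log2 scale. The SSTC3 effect was called above the overexpression effect for 9 of 9 genes and for 17.2% of all genes, from 0.68 ± 0.12 (Klf9) to 4.88 ± 0.42 (Nr4a3). The knockdown effect was below the overexpression effect in value for all 8 genes, and was called so for 7 of them and for 16.8% of all genes. The gene without a call was Nr4a3 (-0.65 ± 0.30, adjusted p 0.0804). Nr4a1 was among the 7 (-1.06 ± 0.36, adjusted p 0.016), but its adjusted p was 0.143 without CK1a_KD replicate 1, 0.0531 without KD_control replicate 1 and 0.0569 without KD_control replicate 2. Nr4a3 passed without KD_control replicate 1 (adjusted p 0.0388). These comparisons set different cell sets against each other, so the cell set and the intervention cannot be told apart.

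The genes did not have mirrored sizes. The log2 fold changes of the 8 genes in the 2 comparisons had a Spearman correlation of 0.83 and a Pearson correlation of 0.76, and 0.89 (Spearman) over 7 genes without Nr4a1. Positive values here mean that the genes with the smallest rise with SSTC3, Klf9 and Klf6, had the deepest fall with knockdown. Nr4a3, with the largest rise, had one of the smallest falls. Only 8 genes enter, and the comparisons share no library, so the value is a description.

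Levels in the 6 groups did not follow 1 order. Nr4a1, Nr4a2 and Klf2 were highest with SSTC3. Klf6 and Klf9 were highest in KD_control libraries, with SSTC3 next and no overlap. Nr4a3 and Klf10 had KD_control libraries first as well, but their ranges overlapped those of SSTC3. Klf4 and Klf5 were highest in OE_control libraries, where the Klf5 ranges of CK1a_OE and KD_control overlapped. The lowest group was DMSO for Nr4a3, Klf4, Klf5 and Klf10, CK1a_KD for Nr4a1, Klf6 and Klf9, and OE_control for Nr4a2, which overlapped CK1a_OE. Klf2 is listed at 0 in the knockdown set, and those zeros were not ranked. SSTC3 thus left Klf4 at a mean of 31.2 CPM, under the KD_control mean of 51.7 CPM.

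Per kilobase of exon, the receptors summed to 88.0 CPM per kb with SSTC3 and 7.76 CPM per kb with DMSO. Nr4a1 made up 89.1% of the sum in SSTC3 and 70.4% in DMSO libraries. In the overexpression set the sum was 5.28 CPM per kb in libraries labelled CK1a_OE and 4.98 CPM per kb in OE_control libraries, with Nr4a1 at 58.3% and 63.5%. In the knockdown set it was 4.20 CPM per kb in CK1a_KD and 8.74 CPM per kb in KD_control libraries. There Nr4a2 led, with 59.0% in CK1a_KD and 70.0% in KD_control libraries, and Nr4a1 made up 4.07% and 4.23%. The 2 sets labelled MEF thus had different leading receptors, a difference that was not tested.

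The 6 Klf genes summed to 139.5 CPM per kb with SSTC3 and 45.5 CPM per kb with DMSO. The sum was 97.3 CPM per kb in libraries labelled CK1a_OE and 95.8 CPM per kb in OE_control libraries, and 60.2 CPM per kb in CK1a_KD and 151.4 CPM per kb in KD_control libraries. Klf6 led in 5 of the 6 groups, with 29.7% of the sum in SSTC3 and 46.8% in DMSO libraries. The sums of the knockdown set hold 5 genes, since Klf2 is listed at 0 there. Over the 5 genes without Klf2 the sum was 106.7 CPM per kb with SSTC3 and 39.7 with DMSO, 91.0 in libraries labelled CK1a_OE and 89.2 in OE_control libraries. In CK1a_KD libraries Klf10 led, with 38.5% against 33.1% for Klf6.

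**Figure D3:**
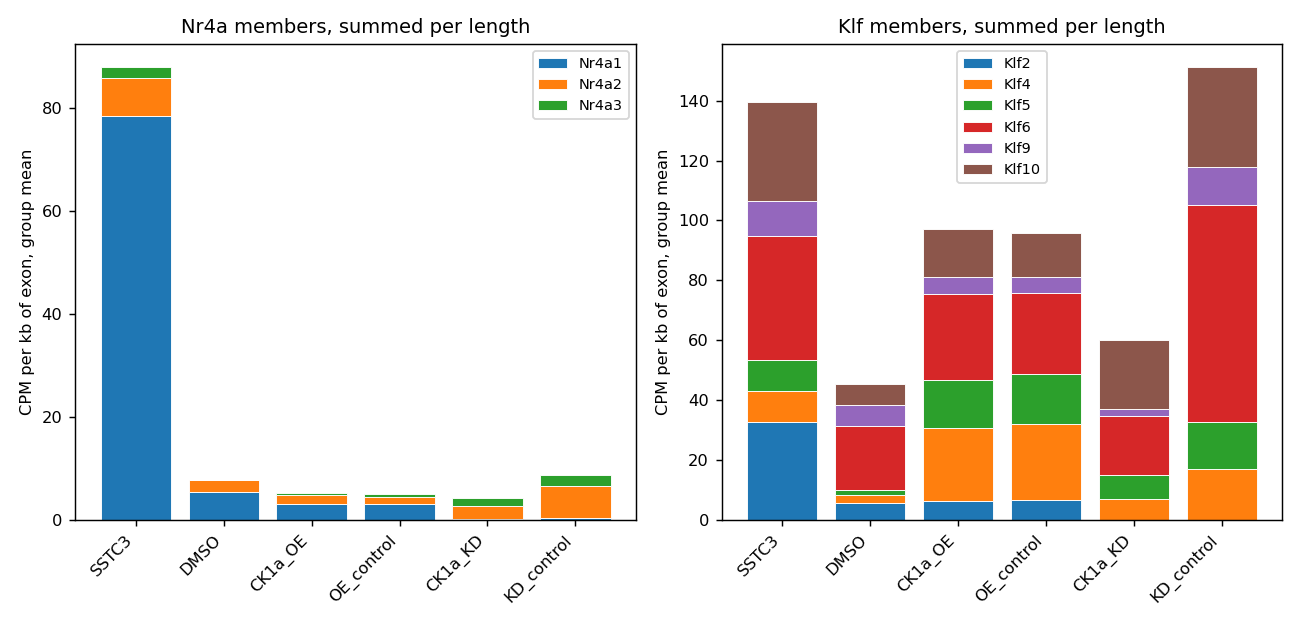
Group means in CPM per kb of exon (vertical axis, bars from 0) of the Nr4a genes (left) and the Klf genes (right), stacked by gene in the 6 groups. The Nr4a bar is 88.0 with SSTC3 and at most 8.74 elsewhere, while the Klf bars of SSTC3 (139.5) and KD_control (151.4, with Klf2 listed at 0) are the 2 highest.

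Other genes of the same pathways were counted by list. Over all genes tested, 27.1% were called higher and 26.5% lower with SSTC3, 5.78% higher and 7.57% lower with labelled overexpression, and 28.3% higher and 26.4% lower with knockdown. Among 11 further Klf genes, 4 of 6 tested rose with SSTC3, led by Klf11, a TGF-beta-inducible relative of Klf10, at 36.7 and 38.0 CPM against 9.56 and 9.92 CPM with DMSO (log2 fold change 1.99). With knockdown 4 of 5 fell, namely Klf15 (-2.21), Klf11 (-1.42), Klf3 (-1.20) and Klf7 (-0.56), and Klf16 rose (0.62). With labelled overexpression 1 of 6 was called, Klf7, which fell (-0.17). The related Sp genes, which bind the same GC boxes, had 5 of 5 higher with SSTC3 (median 0.80), 0 of 5 called by edgeR with labelled overexpression and 2 of 5 higher with knockdown, Sp1 (0.17) and Sp2 (0.24). Further Klf genes thus had calls in both directions in the knockdown set.

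Nuclear receptors outside the Nr4a family were mixed. Of 23 tested with SSTC3, 6 rose and 9 fell, with Nr3c1, the glucocorticoid receptor, at 0.69, the clock repressor Nr1d2 at 0.73, Rxra, a shared dimer partner, at -0.78 and Nr2f1 at -1.20 on the log2 scale. Of 22 tested with labelled overexpression, 2 fell, Nr3c1 (-0.17) and Rxra (-0.23). Of 32 tested with knockdown, 8 rose and 11 fell, with the clock repressor Nr1d1 at -1.02, the vitamin D receptor gene Vdr at -1.06 and Rorb at 1.02. Medians over the tested receptors were -0.18 with SSTC3 and -0.22 with knockdown.

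Known regulators of Nr4a and Klf transcription also moved in both directions. Of 16 tested with SSTC3, 6 rose and 4 fell, among them Srf, the factor of the CArG box (1.32), Mef2a (0.58), the CREB relative Atf1 (0.33) and the CREB coactivator gene Crtc1 (-0.58). Of 16 tested with labelled overexpression 3 rose, Crtc3 (0.28), Mef2a (0.19) and Crtc2 (0.18). Of 15 tested with knockdown 4 rose and 5 fell, among them Atf1 (0.55), Crtc3 (0.54), Mef2d (-0.45) and Elk3 (-0.44).

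Known glucocorticoid-induced genes had 7 of 8 higher and 1 lower with SSTC3, with a median of 1.57. The rises were largest for the phosphatase gene Dusp1 (4.79), the EGFR inhibitor gene Errfi1 (3.99), the mRNA-decay factor gene Zfp36 (2.92) and the kinase gene Sgk1 (2.19), and Fkbp5, a classical receptor target, fell (-0.17). With knockdown 5 of 8 fell and 1 rose, with Dusp1 at -3.50, Zfp36 at -2.15, Per1 at -2.01 and Cebpd at 1.85. With labelled overexpression 1 of 8 was called, Cebpd (0.26). Several of these genes respond to growth factors and stress as well.

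Known TGF-beta-induced genes had 6 of 9 higher and 1 lower with SSTC3, among them the feedback genes Smad7 (1.94) and Skil (1.53). With knockdown 4 of 8 fell, among them Tgif1 (-1.41), Smad7 (-0.87) and Skil (-0.64), and 2 rose. With labelled overexpression 2 of 9 fell, among them Ski (-0.15). These lists were chosen with earlier results known, and their counts describe the named genes.

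**Figure D4:**
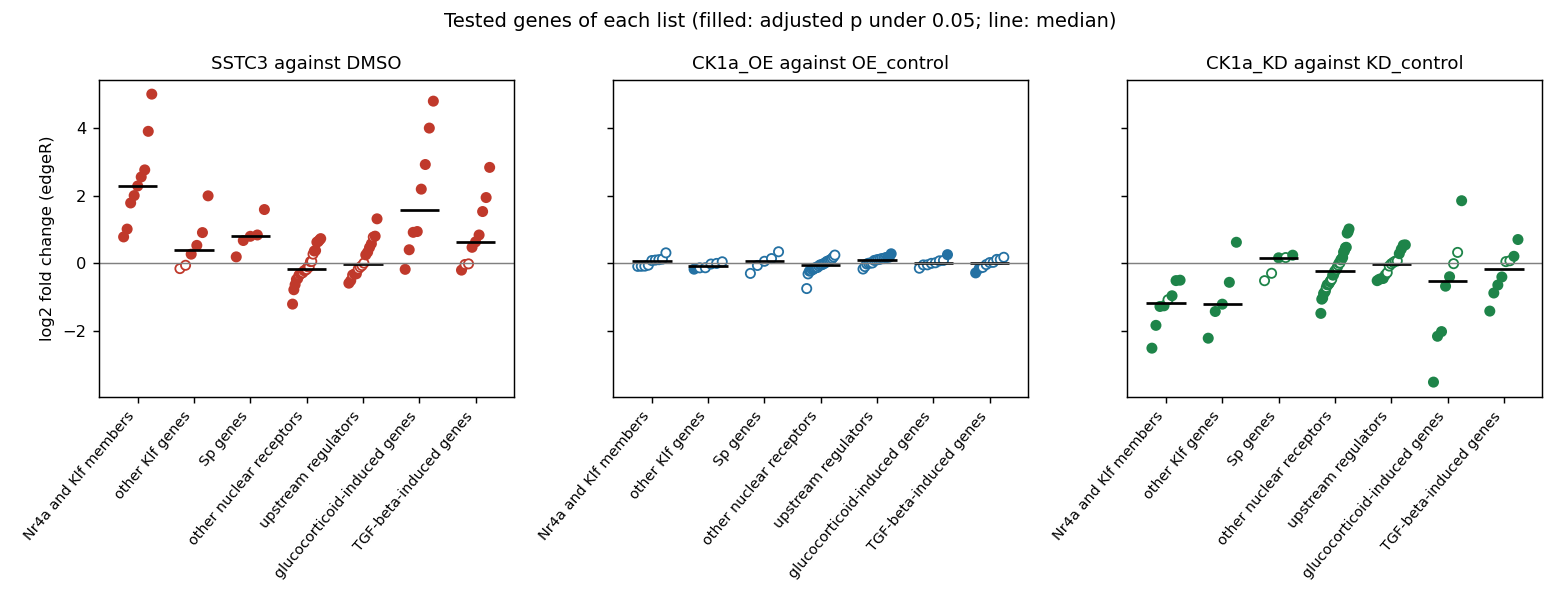
Log2 fold change (vertical axis, edgeR) of each tested gene in the 9 Nr4a and Klf genes and 6 further lists, in the 3 comparisons from left to right, with filled points for an adjusted p under 0.05 and lines for list medians. The 9 genes have the highest list median with SSTC3 (2.285), and the further lists hold points on both sides of 0 with knockdown.

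For each of the 8 genes tested in all 3 comparisons, the nearest genes were taken by the Euclidean distance over the 3 log2 fold changes, among 10300 genes at 4 CPM or more on average. Nr4a1 was nearest to Tnfaip3, the inhibitor of NF-kappaB signalling (distance 0.246), Plk3 (0.276) and Gm14221 (0.284). Nr4a2 was nearest to Stbd1, Mir155hg and Kcnk5, and Nr4a3 to Dusp5, a phosphatase of ERK (0.297), Phlda1 and Etv5. Klf4 was nearest to Nabp1 (0.102), Kitl and Mir155hg, and Klf5 to Dnajb9 (0.095) and Gm49774. Klf6 was nearest to Pdk4 (0.148), Fhdc1 and Gfpt2, Klf9 to Nfil3 (0.221), Casz1 and Ankrd55, and Klf10 to Sgk1 (0.147), Sox9 and Mdm2. The distances rest on the same libraries and carry no test.

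In GENCODE M21 none of the 9 genes shares exonic bases with another annotated gene, but the annotation used for counting was not given. Their spans in GENCODE M21 run from 2624 bp (Klf2) to 41295 bp (Nr4a3), and 6 of the 9 lie under the median span of 17403 bp of protein-coding genes.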

How the data were processed

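RNA was measured in 12 libraries of polyA+ RNA. Alignment used HISAT2 and gene assignment on mm10 used featureCounts, per the submitters' processing notes. Versions, the annotation and the strand setting were not given in the sources used here. Deposited files hold whole-number counts per gene, with no scaling. They list 55401 features in the overexpression set and 54532 in the other sets, and 54100 features are listed in all 12. Library totals were taken over each library's own list. Symbols and positions came from GENCODE M21 (mm10).

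Each comparison was fitted to its own 4 libraries with the quasi-likelihood test of edgeR 4.0.16 in R 4.3.3 (filterByExpr with a minimum count of 10, TMM scaling, robust estimation, no block). P-values were adjusted by the Benjamini-Hochberg method across the genes of the fit (threshold 0.05), and changes of more than 2-fold were tested with glmTreat. The SE is the absolute log2 fold change divided by the square root of F, and can be too small for large changes from low counts. Each fit of 4 libraries left 2 residual degrees of freedom per gene. The degrees of freedom borrowed from all genes had a median of 254 (SSTC3), 51.2 (overexpression) and 59.5 (knockdown). Differences between effects were contrasts in 1 fit of all 12 libraries. Replicates differed by more than sampling noise (chi-square per degree of freedom 2.29 to 3.61, over genes with 20 or more summed counts). Levels are CPM of the library total, whose 95% intervals (exact Poisson, and exact for ratios of counts) cover counting error only.

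Alternatives were no filter, RLE factors, library totals, glmTreat, DESeq2 1.42.0, a fit of all 12 libraries, a replicate block and leaving out each library. Members and lists were chosen with earlier results of these data known. Named genes are the 9 members, the 3 nearest genes of each, and up to 4 tested genes per list with the smallest adjusted p in each comparison. Fkbp5 and the genes used to check labels, markers and the Klf2 locus lie outside that rule, and Fkbp5 was named after its values were seen. Some genes that the rule names are not reported here.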

Additional observations from a re-analysis of the deposited data

How the results depend on the processing

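Of 682 member values under an alternative, 667 kept their direction and side of the threshold, 10 lost the call, 2 gained it and 3 changed sign. Some of the 667 had little room to move. They include differences refitted without a library that enters neither effect, and genes without a call under the test for more than 2-fold. The sign changes were all in the overexpression set when a library was left out, with log2 fold changes of -0.061 (without CK1a_OE replicate 1) to 0.61 for Nr4a2, -0.14 to 0.031 (without CK1a_OE replicate 2) for Nr4a1 and -0.18 to 0.026 (without OE_control replicate 1) for Klf2. The test for more than 2-fold called 627 genes with SSTC3, 1 with overexpression and 632 with knockdown, against 7579, 1863 and 8113. In the overexpression set DESeq2 called 607 genes, the fit of all 12 libraries 1188, and leaving out a library 1065 to 1478. The replicate numbers did not pair the libraries (correlation of same-numbered deviations -0.016, -0.01 and 0.005 in the SSTC3, overexpression and knockdown sets). With a replicate block 7303, 1768 and 8066 genes were called, and 7595, 5474 and 5957 for the differences (SSTC3 minus knockdown, SSTC3 minus overexpression, knockdown minus overexpression), and no member's call changed. Each group has 2 libraries, and low counts limit Nr4a1 in the knockdown set and Nr4a3 with DMSO.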
